A study of Mus musculus with 6 samples.

Results

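The 6 genes Hdc, Hal, Uroc1, Amdhd1, Ftcd and Hnmt, of histidine and histamine metabolism, were followed in whole-liver RNA of mice treated with an antibody against PD-1, an inhibitory receptor of activated T cells. They were taken by name from a table of 21512 genes, and all 6 passed the filter on low values (at least 1 unit in at least 3 libraries), as did 13990 genes in all. The set was picked because Hdc was more than 3-fold higher after anti-PD-1 in this same comparison, so its differences are given as descriptions, with no test, and support nothing further. All 6 mice were C57BL/6J and received a high-fat diet together with the hepatotoxin carbon tetrachloride (HFD/CCl4), which over 12 weeks models fibrosing fatty liver disease (MASH). In the control group 3 mice received an isotype control antibody, and in the other group 3 mice received anti-PD-1, in both cases every 3 days. For replicates 2 and 3 of anti-PD-1 one label carries another number after "PD", and the titles, which name PD-1 for all 3, were followed. Values are CPM of a library scaled by the trimmed mean (TMM), given as mean ± SD over 3 mice. Recovered depth was 15528364 to 20779319 reads per library. As whole livers were sequenced, fewer cells of a type and less RNA per cell cannot be told apart.

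Beside its use in proteins and dipeptides, histidine in mammalian tissue can be turned into histamine or broken down. Histidine decarboxylase, encoded by Hdc, removes the carboxyl group to give histamine, a mediator best known from mast cells and basophils. Histamine is inactivated by N-methylation, catalysed by histamine N-methyltransferase (Hnmt), or by oxidation through diamine oxidase (Aoc1). In hepatocytes histidine is instead broken down in a chain of reactions. Histidase (Hal) releases ammonia and gives urocanate, which urocanase (Uroc1) converts further. Imidazolonepropionase (Amdhd1) then opens the ring, and Ftcd moves the formimino group to tetrahydrofolate, leaving glutamate.

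The 250 bases upstream of the annotated starts of Hdc and Hal are shown because these genes encode the enzymes that draw on the same substrate for histamine and for breakdown. The sequences are from RefSeq in build GRCm38.p6, which is older than the build named for the deposited values. The Hdc window is chr2:126618679-126618928 on the minus strand, and the Hal window is chr10:93488518-93488767 on the plus strand. Capitals mark matches, on either strand, to the motifs searched.
Hdc: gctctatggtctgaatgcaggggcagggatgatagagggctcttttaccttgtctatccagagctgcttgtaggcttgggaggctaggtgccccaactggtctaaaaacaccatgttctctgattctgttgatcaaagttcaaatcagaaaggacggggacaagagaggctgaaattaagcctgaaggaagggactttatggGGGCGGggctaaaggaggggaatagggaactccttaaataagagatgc
Hal: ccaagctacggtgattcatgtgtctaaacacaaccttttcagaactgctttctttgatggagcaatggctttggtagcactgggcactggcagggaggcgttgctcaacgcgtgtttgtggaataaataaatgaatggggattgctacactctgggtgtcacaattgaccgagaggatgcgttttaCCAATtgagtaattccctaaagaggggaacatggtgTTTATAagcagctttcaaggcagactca
The motifs searched were the GC box GGGCGG, the TATA box TATAAA, the CCAAT box CCAAT, the E-box CACGTG, the core TGACG of the cAMP response element, the D-box TTATGTAA and the C/EBP site TTGCGCAA. Hdc held 1 GC box, which began 48 bases before the start, and Hal held 1 CCAAT box and 1 TATA box, which began 64 and 28 bases before the start. The matches in these windows did not overlap each other. Of 32807 windows of the same length, 32.7% held the GC box, 33.8% the CCAAT box and 12.4% the TATA box. None of the E-box, D-box and C/EBP letters was in the windows of any of the 6 genes, against 6.02%, 0.817% and 0.165% of all windows. Hal and Amdhd1 are neighbouring coding genes on chromosome 10. None of the 6 genes overlapped another gene in that RefSeq table, and none of their transcripts shared 100 bases or more at 95% identity with the transcript of another gene.

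Hdc stood at 6.04, 14.3 and 8.50 CPM in isotype control replicates 1 to 3 and at 16.7, 54.5 and 32.1 CPM in anti-PD-1 replicates 1 to 3. All 3 anti-PD-1 livers lay above all 3 controls, but anti-PD-1 replicate 1 was only slightly above isotype control replicate 2. These values rest on 112, 264 and 169 reads in the controls and 348, 819 and 621 reads after anti-PD-1. The means were 9.61 ± 4.23 and 34.5 ± 19.0 CPM (n = 3 each), a ratio of 3.59, and the fitted difference was 1.72 ± 0.44 (SE) on the log2(CPM + 0.5) scale. In the fit across all genes, limma called 1 of 13990 genes higher (0.00715%) and 0 lower (0%) at an adjusted p under 0.05, against 705 and 873 at an unadjusted p under 0.05, and edgeR called 1. DESeq2 called 151 higher (1.08%) and 110 lower (0.786%), and limma with the replicate number as a block called 40 in either direction (0.286%). The anti-PD-1 values lay wholly above the controls in 7.13% of tested genes and wholly below them in 9.98%. Hdc is the only 1 of the 6 genes without overlap between groups, and it was chosen for that contrast.

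On the fitted scale 34 genes (0.243% of those tested) were more than 3-fold higher after anti-PD-1, and 24 (0.172%) had a difference at least as large as that of Hdc. The 3 named genes just above 3-fold were Ciart, Zbtb16 and Igfbp1, at 1.60, 1.62 and 1.65 on the log2 scale, and the 3 just below were Maff, Cd3e and H2-Aa, at 1.58, 1.57 and 1.56. Zbtb16, a zinc finger transcription factor, had control values of 13.2, 15.96 and 16.04 CPM and anti-PD-1 values of 25.2, 73.2 and 57.2 CPM, with the highest liver the same as for Hdc. The immune genes Cd3e and H2-Aa had their highest value in anti-PD-1 replicate 1 instead, at 7.35 and 516 CPM.

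**Figure D1:**
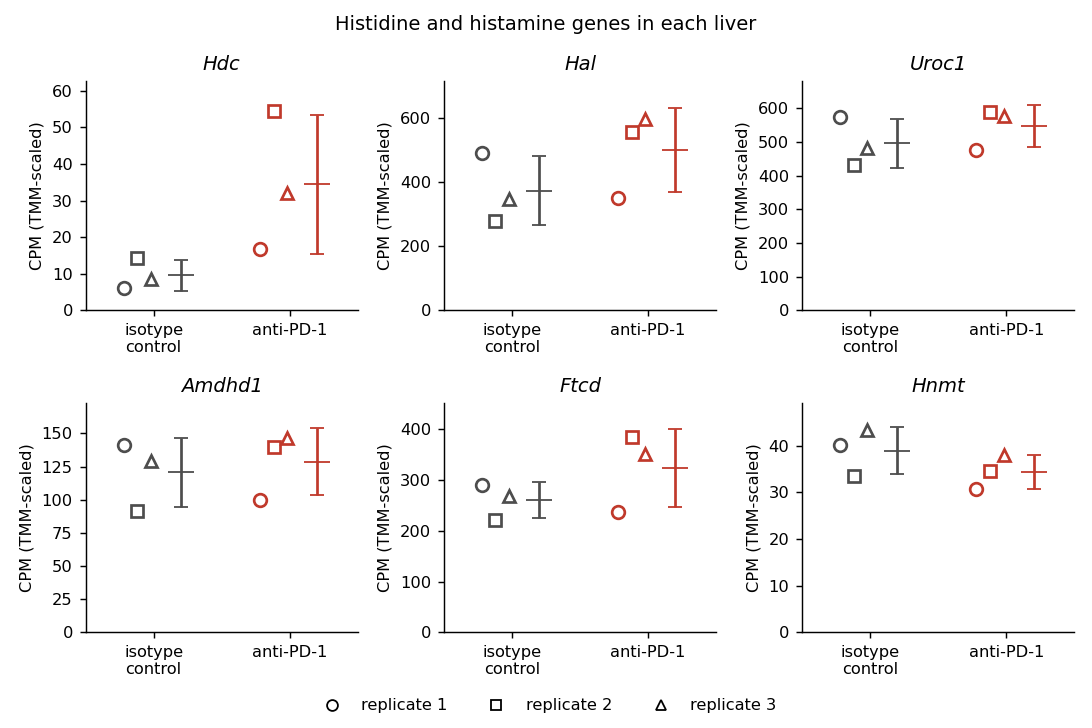
Each panel plots 1 gene in CPM of a TMM-scaled library (linear axis from 0), with a symbol for each mouse, grey for isotype control and red for anti-PD-1, and bars for the mean and SD over 3 mice. The Hdc groups do not overlap (6.04 to 14.3 against 16.7 to 54.5 CPM), while the groups of the other 5 genes do.

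The 4 breakdown enzymes were far more abundant than Hdc, and their groups overlapped. Hal, which takes the first step, was at 490.1, 278 and 348 CPM in isotype control replicates 1 to 3 and at 350.2, 555 and 596 CPM in anti-PD-1 replicates 1 to 3. Replicates 2 and 3 of anti-PD-1 were above every control, while replicate 1 lay within the control range. Its mean was 372 ± 108 in controls and 501 ± 132 CPM after anti-PD-1, a fitted log2 difference of 0.43 ± 0.26 (SE).
Ftcd, which takes the last step, was at 291, 221 and 269 CPM in controls and 238, 385 and 351 CPM after anti-PD-1. The pattern was that of Hal, with anti-PD-1 replicates 2 and 3 above all controls and replicate 1 within their range (log2 difference 0.30 ± 0.20 SE).
Uroc1, the urocanase, was at 576, 431 and 482 CPM in controls and 477, 589 and 578 CPM after anti-PD-1. Isotype control replicate 1 was close to the highest anti-PD-1 livers, and the log2 difference was 0.15 ± 0.15 (SE).
Amdhd1, the imidazolonepropionase, was at 141, 91.4 and 129 CPM in controls and 99.7, 139 and 147 CPM after anti-PD-1. Its group means, 121 ± 26.1 and 129 ± 25.3 CPM, differed by less than the SD of either group (log2 difference 0.10 ± 0.20 SE).

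All 4 breakdown enzymes were ordered alike across the control livers, and shared the lowest liver after anti-PD-1. Isotype control replicate 2 was the lowest control and replicate 1 the highest for each of them, and anti-PD-1 replicate 1 was the lowest anti-PD-1 liver for each, while the highest was replicate 3 for Hal and Amdhd1 and replicate 2 for Uroc1 and Ftcd. Hdc had the opposite order at the ends of the control group, lowest in replicate 1 and highest in replicate 2, and the same lowest liver, replicate 1, after anti-PD-1. The summed level of the 4 enzymes was 1022 to 1498 CPM in controls and 1164, 1669 and 1671 CPM in anti-PD-1 replicates 1 to 3. Without anti-PD-1 replicate 1 the log2 differences of Hal, Ftcd, Uroc1 and Amdhd1 were 0.67, 0.51, 0.24 and 0.27. The difference of Amdhd1 changed sign with isotype control replicate 2 left out (-0.09) and likewise with anti-PD-1 replicate 3 left out (-0.0095), and leaving out isotype control replicate 2 brought Hal, Ftcd and Uroc1 down to 0.24, 0.18 and 0.05.

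**Figure D2:**
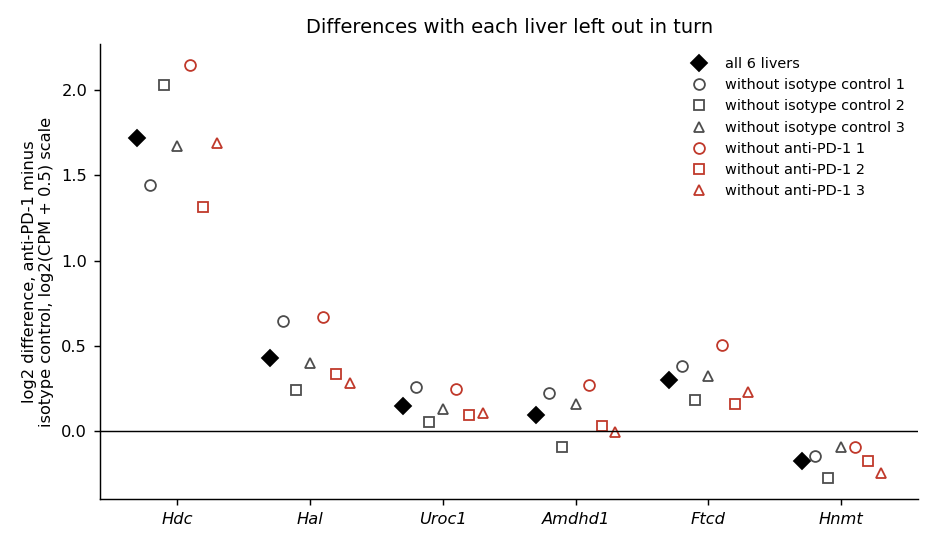
The fitted log2 difference (anti-PD-1 minus isotype control, log2(CPM + 0.5) scale) is plotted for each of the 6 genes with all livers (filled diamond) and with each liver left out in turn (open symbols, grey for an omitted control, red for an omitted anti-PD-1 liver). Hdc stays between 1.31 and 2.15, Hnmt stays below 0, and Amdhd1 crosses 0.

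Hnmt, the enzyme that inactivates histamine by methylation, was at 40.1, 33.5 and 43.4 CPM in controls and 30.7, 34.6 and 38.0 CPM after anti-PD-1. The groups overlapped, and the log2 difference was -0.17 ± 0.13 (SE), opposite in sign to that of Hdc. Divided by transcript length, Hnmt averaged 23.5 ± 3.04 CPM per kb in controls and 20.8 ± 2.19 after anti-PD-1, while Hdc averaged 4.02 ± 1.77 and 14.4 ± 7.95 CPM per kb. The level of Hdc per kb was 0.104, 0.295 and 0.136 of that of Hnmt in isotype control replicates 1 to 3 and 0.376, 1.09 and 0.586 of it in anti-PD-1 replicates 1 to 3. Hdc thus exceeded Hnmt per length in 1 liver, anti-PD-1 replicate 2.
On the same per-length scale the control levels ran from Uroc1 (147 ± 21.7 CPM per kb) through Ftcd (135 ± 18.5), Hal (70.0 ± 20.3), Amdhd1 (49.9 ± 10.8) and Hnmt down to Hdc. Across the control livers Uroc1 and Ftcd differed by less than their SD, and the values of Hal and Amdhd1 overlapped. Within each control liver, however, Uroc1 was above Ftcd and Hal above Amdhd1 per length. After anti-PD-1 Ftcd (168 ± 39.9 CPM per kb) and Uroc1 (163 ± 18.4) again differed by less than their SD, followed by Hal (94.1 ± 24.8) and Amdhd1 (53.1 ± 10.5), and the ranges of Hnmt and Hdc overlapped. Ftcd was 33.5 times Hdc per length in controls and 11.7 times after anti-PD-1, and Hnmt 5.86 and 1.44 times.

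The other genes of the pathway were taken from a list of 32, of which 5 had no value in the table used here and 3 fell under the filter. Of the 24 tested, 12 had positive and 12 negative log2 differences, with a median of 0.0024 against 0.0027 over all tested genes. limma and edgeR called 0 of the 24 at an adjusted p under 0.05, DESeq2 called 0, and 3 higher and 4 lower had an unadjusted p under 0.05 by limma, where 5.04% and 6.24% of all tested genes did.
Among enzymes that oxidise histamine metabolites, Maoa, a monoamine oxidase, was at 12.0, 11.1 and 13.5 CPM in controls and 8.02, 6.46 and 8.43 CPM after anti-PD-1. All 3 anti-PD-1 livers lay below the controls, with a log2 difference of -0.65 ± 0.15 (SE) that did not pass (limma adjusted p = 0.253, DESeq2 adjusted p = 0.0601). Its relative Maob, the far more abundant form here, was at 168 ± 7.73 and 161 ± 15.01 CPM. Aldh1a1, an aldehyde dehydrogenase, was at 1160, 1258 and 1323 CPM in controls and 1073, 896 and 980 CPM after anti-PD-1 (log2 difference -0.35 ± 0.14 SE, limma adjusted p = 0.412). Its anti-PD-1 values also lay below all controls. Aldh1b1, another aldehyde dehydrogenase and the tested gene of this list with the most positive difference after Hdc (0.09), was at 179 ± 53.7 and 187 ± 21.98 CPM.
Diamine oxidase, encoded by Aoc1, had 1 to 3 reads in 5 of the 6 livers and 23 reads in anti-PD-1 replicate 1. Of the 4 histamine receptors, Hrh3 and Hrh4 had no value in the table used here and the other pair fell under the filter. Hrh1, the receptor of allergic responses, had 0 to 5 reads per library. Hrh2, the receptor that drives gastric acid secretion and is also found on immune cells, had 4, 2 and 2 reads in controls and 48, 2 and 19 reads after anti-PD-1. Its reads were thus most numerous in anti-PD-1 replicate 1, the liver with the lowest Hdc of that group.

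Of 8 tested transporters of histidine or histamine, 6 had positive log2 differences (median 0.32), against 50.5% of all tested genes. Of the 8, 3 were higher and 0 lower at an unadjusted p under 0.05 by limma, against 5.04% and 6.24% of all tested genes, and 0 passed the adjusted threshold by limma or DESeq2. Slc18a2, the vesicular monoamine transporter that loads histamine into granules, was at 2.75, 3.68 and 2.71 CPM in controls and 4.47, 6.19 and 4.81 CPM after anti-PD-1. Its groups did not overlap (log2 difference 0.67 ± 0.20 SE, limma adjusted p = 0.307). These values rest on 51, 68 and 54 reads in controls and 93 reads in each anti-PD-1 liver. The order of the anti-PD-1 livers, with replicate 2 highest, thus comes from the scaling of the libraries alone. Slc15a3, a lysosomal transporter of histidine and small peptides, was at 13.8, 10.01 and 9.20 CPM in controls and 25.1, 15.8 and 14.7 CPM after anti-PD-1 (log2 difference 0.71 ± 0.23 SE, limma adjusted p = 0.348), with its highest value in anti-PD-1 replicate 1 and a difference of 0.47 without that library. Slc38a3, the main liver transporter for glutamine and histidine, was at 902, 1537 and 1228 CPM in controls and 1185, 1551 and 1699.7 CPM after anti-PD-1, with overlapping groups. At the other end Slc22a3, an organic cation transporter that carries histamine, was at 2.98 ± 1.28 and 1.61 ± 0.70 CPM (log2 difference -0.70 ± 0.36 SE, limma adjusted p = 0.518).
Genes that place histidine in proteins and dipeptides, modify it there or release it had 4 positive and 4 negative log2 differences. Hars1, the cytosolic histidyl-tRNA synthetase, was at 21.4 ± 1.87 and 22.01 ± 2.76 CPM. Hars2, the mitochondrial form, was at 22.6, 21.05 and 22.2 CPM in controls and 15.9, 17.8 and 17.02 CPM after anti-PD-1, without overlap (log2 difference -0.37 ± 0.11 SE, limma adjusted p = 0.295). Mettl18, a histidine methyltransferase that modifies a ribosomal protein, had the lowest difference, with means of 2.53 ± 0.99 and 1.17 ± 0.41 CPM (log2 difference -0.84 ± 0.32 SE, limma adjusted p = 0.39). Cndp2, a dipeptidase, had the highest, at 31.5 ± 6.33 and 35.4 ± 5.57 CPM.

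**Figure D3:**
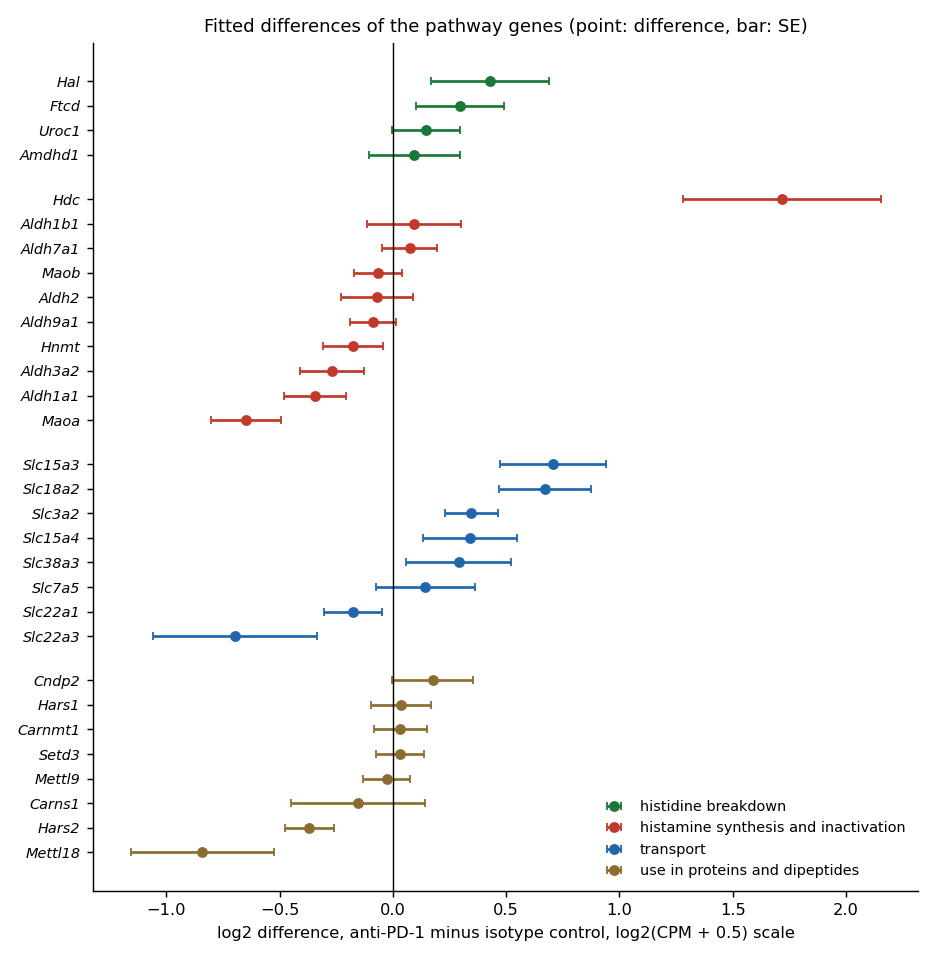
Points are fitted log2 differences (anti-PD-1 minus isotype control, log2(CPM + 0.5) scale) of the 30 tested pathway genes, grouped by role, and bars are SE. Hdc, at 1.72, is farthest to the right, Mettl18, at -0.84, is farthest to the left, and the 4 breakdown enzymes lie between 0.10 and 0.43.

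Both tested decarboxylases related to Hdc had log2 differences below 0, that of Ddc by less than its SE. Ddc, the aromatic amino acid decarboxylase that gives serotonin and dopamine, was at 87.2, 39.8 and 33.7 CPM in controls. After anti-PD-1 it was at 42.2, 43.5 and 55.2 CPM, with overlapping groups (log2 difference -0.07 ± 0.32 SE). Csad, the decarboxylase of taurine synthesis, had a log2 difference of -0.95 ± 0.13 (SE), and its call depended on the tool (limma adjusted p = 0.129, DESeq2 adjusted p = 2.66e-07). The other 3 genes of this group had no value in the table used here.
The tetrahydrofolate that Ftcd loads is handled by a set of folate enzymes, and of 9 tested, Ftcd included, 5 had positive and 4 negative log2 differences (median 0.03), with 0 called by limma or DESeq2 and 0 at an unadjusted p under 0.05. Aldh1l1, which oxidises the folate-bound formyl carbon, was at 1239.9 ± 86.1 and 1442 ± 103 CPM. Mthfd2, the mitochondrial folate enzyme of proliferating cells, had the lowest difference, at 1.17 ± 0.12 and 0.90 ± 0.47 CPM.

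The breakdown enzymes of histidine were set beside 31 enzymes that break down other amino acids in liver, all of which were tested. Of these, 27 had positive log2 differences (87.1%, against 50.5% of all tested genes), with a median of 0.15 against 0.0027. The 4 histidine enzymes were all positive, with a median of 0.22. limma called 0 of the 31, with 6 higher and 0 lower at an unadjusted p under 0.05, where 5.04% and 6.24% of all tested genes were. DESeq2 called 3, all higher, among them Aass and Agxt, where it called 1.08% of all tested genes higher. Aass, the first enzyme of lysine breakdown, had the largest difference, at 361, 428 and 514 CPM in controls and 625, 936 and 1197 CPM after anti-PD-1 (log2 difference 1.04 ± 0.25 SE, limma adjusted p = 0.249, DESeq2 adjusted p = 0.000977). Its lowest anti-PD-1 liver was replicate 1, as for Hdc and the histidine enzymes. Agxt, which converts glyoxylate to glycine, was at 154 ± 3.36 and 253 ± 62.8 CPM (DESeq2 adjusted p = 0.00723). Amt, of the glycine cleavage system, was at the lower end with 54.5 ± 3.98 and 46.6 ± 3.22 CPM. With anti-PD-1 replicate 1 left out, the 31 enzymes had a median of 0.30 and the 4 histidine enzymes one of 0.39.

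Histamine is known from mast cells and basophils, so their markers were read beside Hdc. Of 14 mast cell markers, 10 had no value in the table used here, in which every listed gene had at least 6 reads over the 6 libraries. The 10 include the defining proteases Cpa3, Tpsb2, Tpsab1, Cma1, Mcpt1, Mcpt2 and Mcpt4 and the receptor chains Fcer1a and Ms4a2. The other 4, Kit, Gata2, Hpgds and Il1rl1, summed to 23.3 to 25.6 CPM in controls and 21.7 to 25.1 CPM after anti-PD-1, and these ranges overlapped. Most of this sum was Kit (17.3 ± 1.65 and 15.1 ± 1.22 CPM) and Hpgds (5.92 ± 2.49 and 6.97 ± 2.04 CPM), while Gata2 and Il1rl1 fell under the filter. With 10 markers lacking a value, the sum cannot show whether mast cell content differed. Of 8 basophil markers, Mcpt8, Prss34 and 4 others had no value, and the pair with a value, Cd200r3 and Gata2, summed to 0.302 to 1.40 CPM in controls and 0.799 to 1.35 CPM after anti-PD-1.
Neutrophil markers, of which 12 of 13 had a value, summed to 10.2 to 11.8 CPM in controls and 58.1, 9.39 and 15.004 CPM in anti-PD-1 replicates 1 to 3. All 10 markers of monocytes and infiltrating macrophages had a value and summed to 142 to 277 CPM in controls. After anti-PD-1 they summed to 891, 155 and 244 CPM, of which Lyz2 alone gave 768, 127 and 206 CPM. The 10 T cell markers summed to 3.57 to 4.96 CPM in controls and 52.8, 8.79 and 11.8 CPM after anti-PD-1. Anti-PD-1 replicate 1 thus stood apart on all 3 of these lists, and it had the lowest Hdc of its group, while replicate 2 had the highest Hdc and the lowest sum on all 3. Without replicate 1 the log2 difference of Hdc was 2.15, and without replicate 2 it was 1.31. The part of these cell types in the values of Hdc was not tested. The 8 Kupffer cell markers summed to 169 to 387 CPM in controls and 166 to 216 CPM after anti-PD-1. The most abundant of them was Cd5l, with a log2 difference of -0.02. Of the 8, 7 were negative (median -1.10), against 6928 of 13990 tested genes. limma called 0, while DESeq2 called 0 higher and 3 lower, against 0.786% of all tested genes called lower. These were Cd163, Marco and Timd4, with log2 differences of -3.21, -2.17 and -1.81.

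Hal is known as an enzyme of periportal hepatocytes, and markers of liver zones moved with part of these values. Hepatocyte identity was plain, with Alb, the albumin gene, at 46646 to 69086 CPM. The 12 periportal markers summed to 19385 to 21662 CPM in controls and 20009, 28323 and 28937 CPM in anti-PD-1 replicates 1 to 3, the same pattern over the anti-PD-1 livers as for Hal and Ftcd, and 11 of 12 had positive log2 differences (median 0.28, and 0.48 without anti-PD-1 replicate 1). The 11 pericentral markers summed to 3846, 7304 and 6319 CPM in controls and 5530, 6547 and 7193 CPM after anti-PD-1, with isotype control replicate 1, the control with the lowest Hdc and the highest Hal, standing apart. Their median log2 difference was 0.11, and -0.23 without that library. The most abundant of them was Cyp2e1, at 3467 ± 1276 and 4093 ± 576 CPM. Of the 11, 6 differences were positive and 5 negative. limma called 0, while DESeq2 called 0 higher and 2 lower, against 0.786% of all tested genes called lower. These were Tbx3 and Axin2, with log2 differences of -1.47 and -1.72 and no overlap between groups. The part of these zonal markers in the differences of Hdc and of the breakdown enzymes was not tested.

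**Figure D4:**
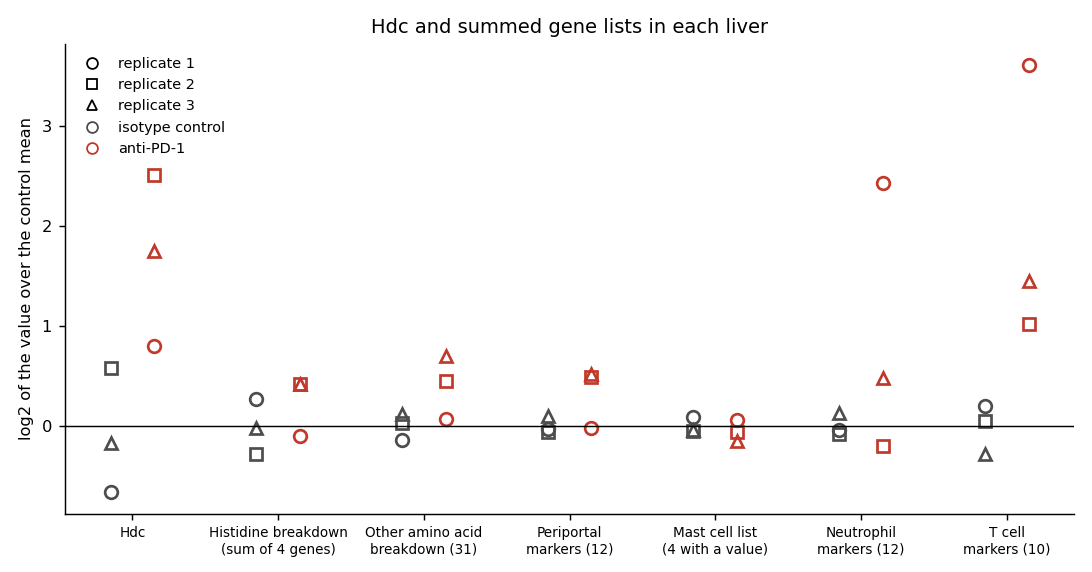
Each point is 1 liver, as the log2 of its value over the control mean, for Hdc and for the summed CPM of gene lists, with grey for isotype control, red for anti-PD-1 and a symbol for each replicate number. On Hdc anti-PD-1 replicate 1 (circle) is the lowest of its group at 0.80. On the neutrophil and T cell lists it is the highest, at 2.42 and 3.60. The mast cell list, 4 genes with a value and mostly Kit and Hpgds, stays within 0.16 of 0 in every liver.

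Genes with a pattern like that of Hdc were sought among 12314 named tested genes by Pearson's r of log2(CPM + 0.5) over the 6 libraries, given as a measure of likeness only, since the libraries form 2 groups and the highest of many values were taken. The 8 most alike were Slc6a20b, Rictor, Zkscan6, Jmjd1c, Btbd19, Frs2, Zfp169 and Arid1b, with r from 0.986 to 0.994, and 85 genes had r over 0.95. Slc6a20b, a transporter of the SLC6 family, was at 2.05, 3.14 and 2.31 CPM in controls and 3.84, 6.86 and 5.54 CPM after anti-PD-1, with the livers of each group in the same order as for Hdc. Btbd19 had the largest difference of the 8, at 1.35, 4.27 and 2.77 CPM in controls and 4.03, 18.04 and 10.2 CPM after anti-PD-1, and the lowest anti-PD-1 liver lay within the control range. Rictor, a subunit of the mTORC2 kinase complex, followed the same order over a narrow span, from 53.1 to 65.0 CPM in controls and from 65.9 to 88.9 CPM after anti-PD-1. With the group means removed, the highest r were those of Atg2b, Ncoa1, Slc6a20b and Smug1 (0.994 to 0.996), and Smug1 had a log2 difference of -0.14, opposite in sign to that of Hdc. The other 5 members were less alike, with r over the 6 libraries of 0.63 for Ftcd, 0.48 for Hal, 0.37 for Uroc1, 0.17 for Amdhd1 and -0.46 for Hnmt. These r include the group difference for which Hdc was picked. With the group means removed they were 0.41 for Ftcd, 0.09 for Hal, 0.04 for Uroc1, 0.04 for Amdhd1 and -0.04 for Hnmt.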

How the data were processed

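RNA of whole liver from 6 mice was sequenced after ribosomal RNA depletion with a directional kit, per the labels' protocols. GRCm39, edgeR, Bowtie2, RSEM 1.3.0 and Trimmomatic 0.38 appear in the submitters' processing notes with no role given. The authors deposited a normalized signal for each gene in each library. Dividing by what 1 read is worth gave whole numbers for 100% of values, within 0.001, so reads were recovered, and whether these are observed or rounded estimates cannot be seen. The deposited columns are CPM of a TMM-scaled library. A limit of 3 reads is 0.144 to 0.2 CPM, for counting error only. Symbols came from a table of names and matched 21407 identifiers (Hars1 through its older symbol).

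Groups were taken from the titles. Differences were fitted on log2(CPM + 0.5) by limma 3.58.1 with its trend option (R 4.3.3). P-values are two-sided, adjusted by Benjamini-Hochberg over all tested genes and called under 0.05. Tested were genes with at least 1 CPM in at least 3 libraries. A fold change on this scale understates changes of low genes. The planned unit was CPM, and the same test served the scaled values. The recovered reads were also tested with DESeq2 1.42.0 and edgeR 4.0.16, and the fits were tested on simulated counts. Per-length levels used 1 principal transcript per gene of GENCODE annotation for an older build, whose transcripts were also compared with BLAST 2.17.0. The series design gives 3 mice per group, and litter and cage are not given in the sources used here.

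Members and gene lists were chosen with earlier results of these data known. Named genes are the 6 members, the 8 and 4 genes most like Hdc, the 3 genes on each side of 3-fold, and the ends of each list, and any others were chosen after their values were seen. The values of 1 called gene of the amino acid list are not reported here. The labels give both groups replicate numbers 1 to 3. Same-numbered libraries deviated together from their group means (r of 0.149, 0.135 and 0.251, each over 0.1). By the rule used, a fit with the replicate block was therefore run beside the unpaired one. The titles give no pairing of mice, and such small r cannot show one, so the block fit is an alternative only. Alternatives changed the pseudocount, filter, scaling, tool, threshold and block, or left out each library with the tested genes held fixed.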

Additional observations from a re-analysis of the deposited data

How the results depend on the processing

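With the replicate block 27 genes were called higher and 13 lower, against 1 and 0 in the unpaired limma fit. None of the 24 tested pathway genes outside the 6 members was called with the block. DESeq2 called 151 and 110. Leaving out each library in turn gave 0 to 24 higher and 0 to 6 lower, with 24 and 6 without anti-PD-1 replicate 1 and 0 higher without anti-PD-1 replicate 3. Over 16 alternatives the log2 difference of Hdc was 1.31 to 2.15, that of Hal 0.24 to 0.67, of Ftcd 0.16 to 0.51, of Uroc1 0.05 to 0.26, of Amdhd1 -0.09 to 0.27 and of Hnmt -0.28 to -0.09. Each stayed within the replicate SD of the main value, but the ends of these ranges all came from leaving out 1 library. With 3 mice per group that step cannot move a difference by a full replicate SD, so staying within it is no measure of stability. The median of the pathway genes outside the 6 members was -0.05 to 0.06, and its sign was not stable. The folate median was -0.031 with quantile normalization, the Kupffer cell median -0.46 with at least 5 CPM, and the pericentral median -0.23 to 0.38 with a library left out. With at least 5 CPM no neutrophil or T cell marker was left to give a value. With 3 mice per group, exact permutation cannot give a p under 0.1.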
